A study of Mus musculus with 15 samples.

Results

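Border-associated macrophages are the macrophages of the brain's perivascular spaces, meninges and choroid plexus, and 7 genes commonly used to mark them were followed here across microglia sorted from mouse brain: Mrc1, Cd163, Stab1, Cd209a, Dab2, Pf4 and F13a1. All 7 symbols were found among the 13834 genes of the deposited table, and all 7 passed the filter on low values that left 13175 genes for testing. The markers were chosen by name and by presence in that table, which lists no 0, so a marker at 0 in some library could not have been a member. They were also chosen with earlier results of these data known, so their adjusted p-values place them among all genes tested and are not independent evidence for the set. Libraries from PLX5622-treated 18-month-old mice (PLX5622, n = 4), whose compound inhibits the CSF1 receptor and is used to deplete microglia, were set beside 3 untreated groups. Cells of untreated 18-month-old mice had been split by autofluorescence into a bright gate (AF-high, n = 5) and a dim gate (AF-low, n = 3), and untreated 3-month-old mice gave the young group (n = 3). The sources used here do not give strain, sex, dose, schedule, sort markers or the autofluorescence gate of the PLX5622 and young cells. They also do not say whether a library came from 1 animal or from a pool, so a p-value here measures only how much these libraries scatter.

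Border-associated macrophages sit along vessels and in the coverings of the brain, take up proteins and particles from blood and cerebrospinal fluid, and share with microglia a dependence on signalling through the CSF1 receptor. Their surface carries scavenger and lectin receptors: Mrc1 (CD206) binds mannose-rich glycoproteins, Cd163 takes up haptoglobin bound to haemoglobin, Stab1 (stabilin 1) is an endocytic scavenger receptor, and Cd209a is a C-type lectin of the DC-SIGN family that dendritic cells also express. Dab2 is an adaptor of clathrin-mediated endocytosis, Pf4 is the chemokine CXCL4, best known from platelets, and F13a1 encodes the catalytic subunit of coagulation factor XIII, a transglutaminase made by macrophages and megakaryocytes. Parenchymal microglia are generally described as low in Mrc1 and Cd163. In a bulk sort such as this, fewer border macrophages and less marker RNA per cell cannot be told apart.

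The genes lie on 7 different chromosomes (GRCm38, GENCODE M21). Mrc1 is at chr2:14229392-14332057, with 30 exons in its longest transcript and the microRNA gene Mir511 within its bounds on the same strand. Cd163 is at chr6:124304656-124330527, Pf4 at chr5:90772435-90773383 with 3 exons, F13a1 at chr13:36867178-37050244 and Cd209a at chr8:3743397-3748984. Stab1 (chr14:31139013-31168641, 69 exons) overlaps Nt5dc2 on the opposite strand, and Dab2 is at chr15:6299788-6440712. F13a1 and Dab2 also overlap antisense gene models. The sources used here do not say if quantification used strand, so values of overlapping genes are uncertain, and Cd209a can share reads with its close paralogs.

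Promoter sequence is shown for the pair of markers with the most similar pattern, Mrc1 and Cd163. It is also shown for the other markers whose window holds AGGAAGT, an extended ETS sequence (the family of the macrophage factor PU.1). Each line is the 250 bases before a RefSeq start (GRCm38.p6), 5′ to 3′ on the gene's strand. Capitals mark AGGAAGT or its reverse complement ACTTCCT. The shorter ETS core GGAA, or TTCC on the other strand, is not marked and was not counted.
Mrc1 (chr2:14229164-14229413, plus strand): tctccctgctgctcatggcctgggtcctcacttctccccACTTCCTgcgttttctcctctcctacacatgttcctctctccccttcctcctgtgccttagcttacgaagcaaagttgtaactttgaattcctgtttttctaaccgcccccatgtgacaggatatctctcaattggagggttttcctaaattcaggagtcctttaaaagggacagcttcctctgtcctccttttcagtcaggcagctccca
Cd163 (chr6:124304401-124304650, plus strand): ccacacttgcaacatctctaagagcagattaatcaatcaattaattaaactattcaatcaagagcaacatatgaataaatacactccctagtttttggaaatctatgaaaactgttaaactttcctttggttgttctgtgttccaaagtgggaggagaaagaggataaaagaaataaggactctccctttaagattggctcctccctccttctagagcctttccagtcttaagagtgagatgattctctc
Pf4 (chr5:90772185-90772434, plus strand): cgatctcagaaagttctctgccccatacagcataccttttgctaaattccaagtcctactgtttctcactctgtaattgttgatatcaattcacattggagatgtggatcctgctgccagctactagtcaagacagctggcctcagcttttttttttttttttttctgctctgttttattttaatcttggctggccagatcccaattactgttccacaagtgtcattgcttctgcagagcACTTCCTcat
F13a1, the downstream of its 2 starts (chr13:37049214-37049463, minus strand): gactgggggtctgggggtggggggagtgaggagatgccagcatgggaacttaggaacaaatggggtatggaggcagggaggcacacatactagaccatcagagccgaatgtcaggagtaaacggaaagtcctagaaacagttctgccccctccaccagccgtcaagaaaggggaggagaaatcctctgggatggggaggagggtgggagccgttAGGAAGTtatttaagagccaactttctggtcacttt
The letters occur in windows of 3 of the 7 markers: 211 to 205 bases before the start in Mrc1, 10 to 4 bases before it in Pf4, and 36 to 30 bases before the downstream start in F13a1. Among all 32851 RefSeq windows of this length 7.7% hold them on either strand, as do 7.5% of windows of genes in the deposited table. F13a1 and Dab2 have 2 windows each, so a count of markers and a share of windows are unlike measures. The letters were chosen after the windows of the markers had been read, so the matches are a description. The Maf half-site TGCTGA (reverse complement TCAGCA), searched in the same way, was present in windows of Cd209a, Stab1 and Dab2. It was in 16.1% of all windows and in 13.3% of those of genes in the deposited table.

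The libraries carried the microglial genes that their labels call for. P2ry12, a purinergic receptor, ranged between 1183 and 3141 TPM (an abundance corrected for transcript length and scaled to a fixed total per library) and Tmem119 between 366 and 651 TPM over the 15 libraries. Of 13 platelet and megakaryocyte genes 7 were in the table, and their summed level was 75.7 to 103 TPM in PLX5622, 59.7 to 145 TPM in AF-high, 88.8 to 91.1 TPM in AF-low and 84.3 to 90.3 TPM in young libraries. Of 10 monocyte genes 6 were in the table, summing to 57.8 to 67.3 TPM in PLX5622, 45.2 to 61.8 TPM in AF-high, 50.5 to 92.9 TPM in AF-low and 44.0 to 69.7 TPM in young libraries; the defining gene Ccr2 was at 3.44 to 7.67 TPM and Ly6c2 at 0.253 to 2.13 TPM. Young 1 and young 2 stood apart by choroid plexus RNA, with Ttr, the transthyretin gene, at 7770 and 5084 TPM against 25.7 to 341 TPM in the other libraries. AF-low 1 stood apart by its endothelial sum (4 of 10 genes in the table), at 134 TPM against 31.2 to 73.6 TPM elsewhere. Of the defining endothelial genes Cldn5 was not in the table, and Pecam1 was at 25.7 to 51.5 TPM over the libraries. Young 1 and young 2 also had the most astrocyte RNA (7 of 9 genes in the table, summing to 241 and 266 TPM against 77.9 to 142 TPM elsewhere). Of 6 B cell genes 3 were in the table, summing to 152 to 203 TPM in PLX5622, 176 to 293 TPM in AF-high, 217 to 278 TPM in AF-low and 212 to 242 TPM in young libraries. That sum was lower in every PLX5622 than in every AF-low and young library, like several of the 7 markers, and its part in their results was not tested. AF-high and AF-low libraries deviated from their group means by 0.36 to 0.56 log2 units (root mean square over genes), PLX5622 and young libraries by 0.23 to 0.26.

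Mrc1, the mannose receptor, separated all 4 groups. It was at 7.20, 10.97, 6.33 and 10.5 TPM in PLX5622 libraries 1 to 4. AF-high libraries 1 to 5 had 23.1, 22.9, 23.1, 21.4 and 25.8 TPM, AF-low libraries 28.9, 31.7 and 36.0 TPM and young libraries 18.5, 16.8 and 18.4 TPM. No 2 groups overlapped, and the order ran AF-low, AF-high, young, PLX5622. Mrc1 fell in PLX5622 against AF-high cells (log2 change of TPM + 1 of -1.34 ± 0.16 SE, limma adjusted p = 0.00603) and against AF-low cells (-1.79 ± 0.19, adjusted p = 0.00071). In each of these comparisons it had the smallest p of the 13175 genes tested. Between neighbours in the order the differences did not pass: AF-high against AF-low gave -0.45 ± 0.18 (adjusted p = 0.528), AF-high against young 0.36 ± 0.18 (adjusted p = 0.484) and PLX5622 against young -0.98 ± 0.19 (adjusted p = 0.0641).

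Cd163, the haemoglobin scavenger receptor, was among the least abundant markers. PLX5622 libraries had 0.534, 2.40, 0.797 and 1.33 TPM, AF-high libraries 2.41, 3.97, 2.82, 4.26 and 3.85 TPM, AF-low libraries 7.19, 6.11 and 6.35 TPM, and young libraries 2.41, 2.11 and 3.48 TPM. AF-low stood above every other library, and AF-high and young overlapped. PLX5622 lay below every untreated old library, by a narrow gap between PLX5622 2 and AF-high 1 (2.40 and 2.41 TPM), and overlapped young. Cd163 fell in PLX5622 against AF-low cells (-1.80 ± 0.27, limma adjusted p = 0.02), with the fourth smallest p of all genes; against AF-high cells the change was -1.03 ± 0.23 (adjusted p = 0.0556) and against young cells -0.75 ± 0.27 (adjusted p = 0.695). These levels are close to the pseudocount of 1 TPM, so the log2 changes understate the ratio of means, which was 0.193 for PLX5622 to AF-low and 0.365 for PLX5622 to AF-high.

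The other surface receptors did not share that order. Stab1, the most abundant marker in most libraries, was at 115, 102, 104 and 125 TPM in PLX5622, 168, 270, 163, 147 and 172 TPM in AF-high, 179, 199 and 141 TPM in AF-low and 126, 152 and 167 TPM in young libraries. PLX5622 lay below the other groups without overlap, by a narrow gap to young 1, and AF-high, AF-low and young overlapped. The changes of Stab1 did not pass, at -0.69 ± 0.17 against AF-high (limma adjusted p = 0.0684), -0.62 ± 0.19 against AF-low (adjusted p = 0.167) and -0.40 ± 0.19 against young cells (adjusted p = 0.955).

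Cd209a, the DC-SIGN family lectin, had its highest mean in AF-high and not in AF-low libraries. It was at 0.156, 2.11, 1.61 and 1.79 TPM in PLX5622, 10.6, 5.55, 4.60, 8.61 and 9.94 TPM in AF-high, 4.47, 5.95 and 2.26 TPM in AF-low and 4.66, 5.89 and 2.35 TPM in young libraries. Every PLX5622 library lay below every other library, with PLX5622 1 lowest, and the 3 untreated groups overlapped. Cd209a fell in PLX5622 against AF-high cells (-1.91 ± 0.34, limma adjusted p = 0.0289); the change was -1.14 ± 0.39 against AF-low (adjusted p = 0.202) and -1.17 ± 0.39 against young cells (adjusted p = 0.608). Of 9 other dendritic cell genes 4 were in the table, and their summed level was 27.2 to 29.4 TPM in PLX5622, 34.8 to 56.3 TPM in AF-high, 38.0 to 68.2 TPM in AF-low and 28.1 to 34.7 TPM in young libraries. Its defining genes Flt3 and Zbtb46 were at 0.634 to 1.98 and 1.30 to 14.8 TPM. The summed level was thus lower in every PLX5622 than in every untreated old library, and its part in the Cd209a result was not tested.

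Dab2, the endocytic adaptor, ranged widely among the untreated old libraries. It was at 44.6, 35.7, 37.3 and 55.0 TPM in PLX5622, 154, 86.3, 63.3, 63.0 and 170 TPM in AF-high, 286, 97.4 and 155 TPM in AF-low and 55.7, 71.4 and 62.4 TPM in young libraries. PLX5622 lay below all others without overlap, by a narrow gap to young (55.0 and 55.7 TPM). The highest value was in AF-low 1, the library with the highest endothelial sum, whose part in the level was not tested. The Dab2 difference was -1.19 ± 0.33 for PLX5622 against AF-high (limma adjusted p = 0.094), -1.91 ± 0.37 against AF-low (adjusted p = 0.0698) and -0.55 ± 0.37 against young cells (adjusted p = 0.979), none past the threshold.

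Pf4, the chemokine, was at 7.86, 20.7, 12.6 and 16.7 TPM in PLX5622, 56.6, 12.3, 54.6, 40.0 and 28.3 TPM in AF-high, 52.6, 84.7 and 62.0 TPM in AF-low and 14.6, 16.6 and 28.3 TPM in young libraries. AF-high 2 lay within the PLX5622 range, whereas all AF-low libraries lay above all PLX5622 and young ones. The change in PLX5622 cells was -1.25 ± 0.39 against AF-high (limma adjusted p = 0.133), -2.17 ± 0.44 against AF-low (adjusted p = 0.075) and -0.45 ± 0.44 against young cells (adjusted p = 0.979). The summed platelet genes, given above, overlapped between PLX5622 and each other group.

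F13a1, the transglutaminase, was at 3.76, 5.54, 3.98 and 4.89 TPM in PLX5622, 8.06, 6.47, 5.29, 6.51 and 7.86 TPM in AF-high, 8.26, 17.2 and 15.4 TPM in AF-low and 6.13, 5.94 and 8.58 TPM in young libraries. AF-low 2 and AF-low 3 were far above all other libraries, and AF-low 1 was within the young range. F13a1 fell in PLX5622 against AF-low cells (-1.35 ± 0.25, limma adjusted p = 0.047), while the change against AF-high was -0.50 ± 0.22 (adjusted p = 0.29) and against young cells -0.50 ± 0.25 (adjusted p = 0.961).

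**Figure D1:**
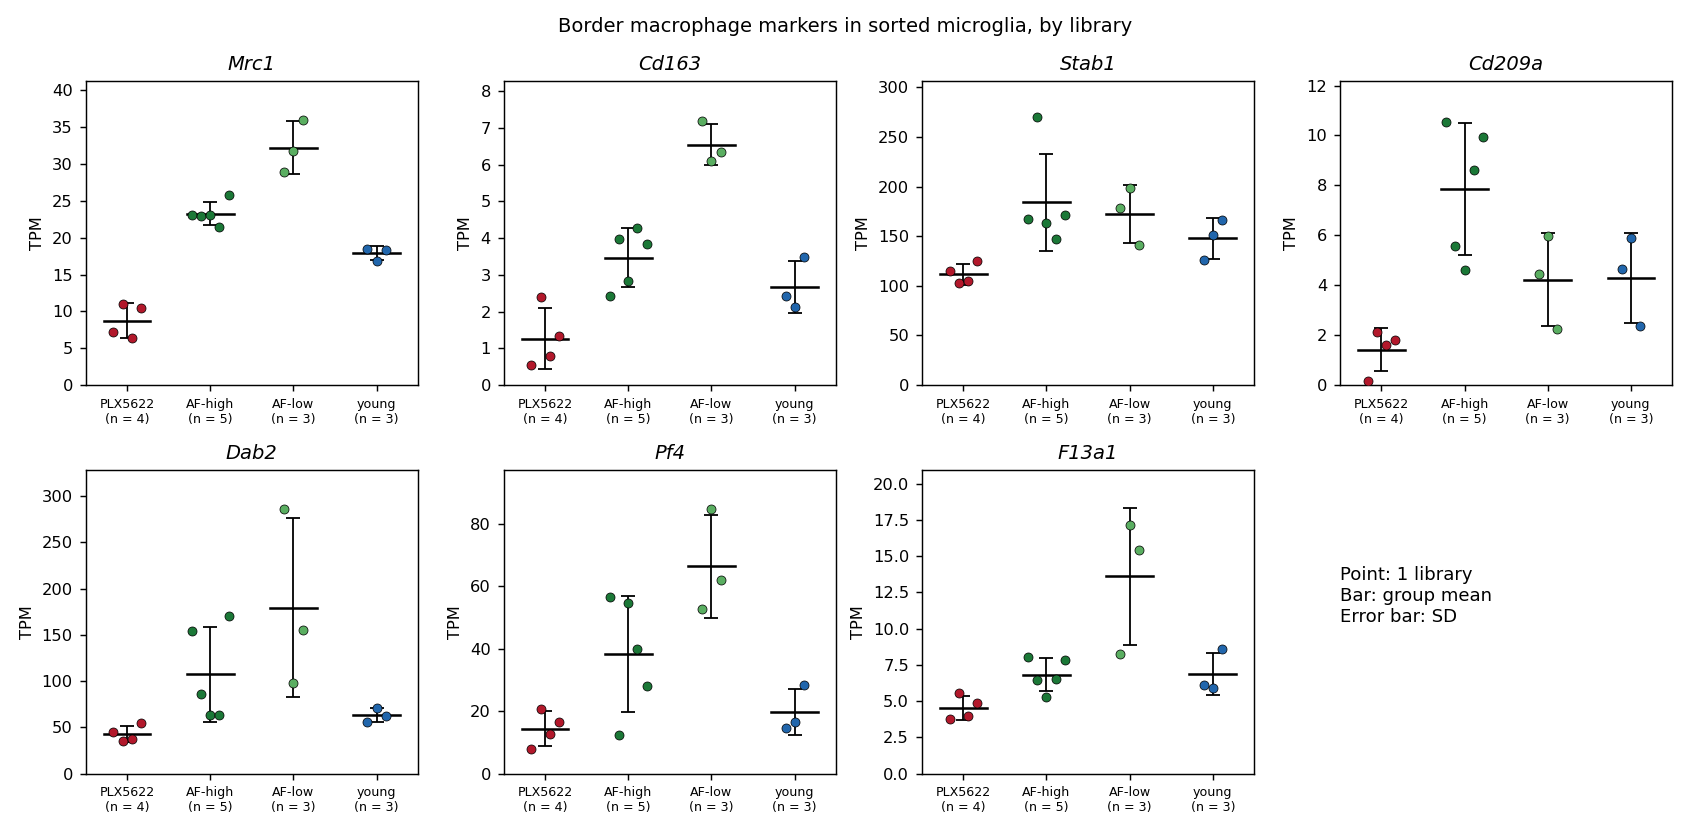
Level in TPM (linear axes starting at 0) of each marker in every library, with the group mean (bar) and SD (error bar), for PLX5622 (n = 4), AF-high (n = 5), AF-low (n = 3) and young (n = 3) libraries. The 4 PLX5622 libraries sit lowest for Mrc1, at 6.33 to 10.97 TPM, and Cd209a is highest in AF-high where Mrc1, Cd163, Pf4, Dab2 and F13a1 have their highest mean in AF-low.

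PLX5622 cells were compared with each untreated old group to ask how treatment changed the old profile. Against AF-high cells 2 of the 7 markers fell, Mrc1 and Cd209a, and 0 rose (limma adjusted p under 0.05); 0.471% of all genes fell and 0.159% rose by the same test (62 and 21 genes, or 36 and 35 under quantile normalization). All 7 changes were below 0, as were 52.5% of all genes, with a median of -1.19 against -0.02 over all genes tested. For 5 markers the PLX5622 libraries lay wholly below the AF-high ones, as they did for 4.18% of all genes; the exceptions were Pf4 and F13a1. Mrc1 stayed past the threshold when any 1 library was left out (adjusted p up to 0.0408). Cd209a lost its call without AF-high 5 or PLX5622 1, 2, 3 or 4 (adjusted p = 0.0603, 0.116, 0.0697, 0.105 and 0.0539), and Cd163, Pf4 and Stab1 gained one without AF-high 1, 2 and 4 in turn (adjusted p = 0.0485, 0.0448 and 0.0466).

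Against AF-low cells 3 markers fell, Mrc1, Cd163 and F13a1, and 0 rose, where 0.144% of all genes fell and 0% rose (19 and 0 genes, or 4 and 0 under quantile normalization). All 7 markers lay wholly below the AF-low libraries in PLX5622, as did 10.9% of all genes. All 7 changes were below 0, as were 55.6% of all genes, and the median change was -1.79 against -0.05 over all genes. Among all 13175 genes 0.05% had a lower change than Pf4 and 0.11% a lower one than Dab2, whose libraries scattered more and did not pass. Mrc1 kept its call without any 1 library (adjusted p up to 0.00822), and lost it when only both groups were fitted (adjusted p = 0.077). Cd163 lost its call without AF-low 1, PLX5622 1 or PLX5622 3 (adjusted p = 0.106, 0.0752 and 0.121), and that of F13a1 was lost without AF-high 1, 4 or 5, AF-low 3, any young library or any PLX5622 library (adjusted p = 0.0535 to 0.216). Dab2 gained a call without AF-high 3 or AF-low 2 (limma adjusted p = 0.0452 and 0.0139). Pf4 gained one without AF-high 2 or AF-low 2 (adjusted p = 0.021 and 0.0491). Without AF-low 2, 5 markers were thus called, and 398 of all genes passed in place of 19. F13a1 also lost its call with no filter (adjusted p = 0.0547), under quantile normalization (0.0857), under median-ratio scaling (0.0691) and with weights by group (0.0798). With these weights Cd163 lost its call as well (adjusted p = 0.0657) and Dab2 gained one (adjusted p = 0.0468).

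With both gates of untreated old cells averaged at equal weight, 6 of 7 markers fell in PLX5622 cells and 0 rose, where 1.08% of all genes fell and 0.281% rose (142 and 37 genes, or 47 and 42 under quantile normalization). It reuses the libraries of the comparisons with each gate, and all comparisons with PLX5622 cells share the same 4 treated libraries. Mrc1 changed by -1.57 ± 0.15 (limma adjusted p = 0.000358), again with the smallest p of all genes, and Cd163 by -1.41 ± 0.22 (adjusted p = 0.0155). Dab2 changed by -1.55 ± 0.30 (adjusted p = 0.0298), Cd209a by -1.53 ± 0.32 (adjusted p = 0.0369), Pf4 by -1.71 ± 0.36 (adjusted p = 0.0371) and F13a1 by -0.93 ± 0.20 (adjusted p = 0.0448). Stab1, at -0.65 ± 0.15 (adjusted p = 0.0519), did not pass. In 5 of the 7 markers all 4 PLX5622 libraries lay below all 8 untreated old ones, as in 2.32% of all genes. All 7 changes were below 0, as were 54.9% of all genes, with a median of -1.53 against -0.03 over all genes. Leaving out 1 library gave 1 marker without PLX5622 1 or 3, 2 without PLX5622 2 or 4, 3 without AF-high 5, AF-low 1, AF-low 3 or young 2, 4 without young 1 or young 3, 6 without AF-high 1 or AF-low 2 and 7 without AF-high 2, 3 or 4. Mrc1 was among those called each time (adjusted p up to 0.00445). Quantile normalization gave 4 markers, F13a1 and Pf4 losing their calls (limma adjusted p = 0.0504 and 0.056). Median-ratio scaling gave 5 without F13a1 (adjusted p = 0.0524). Weights by group gave all 7, where 573 of all genes passed in place of 179. Setting aside 3 old libraries (AF-high 2 and 3, AF-low 1) gave 7 markers, and setting aside young 1 and young 2 gave 2, Mrc1 and Cd163. Both choices were made after seeing the data. AF-high 2, AF-high 3 and AF-low 1 deviated from their group means by 0.560, 0.524 and 0.472 log2 units, with AF-high 1 close behind at 0.461.

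Against young cells 0 of the 7 markers passed in PLX5622 cells (limma), with 3 at an unadjusted p under 0.05 (5.23% of all genes), where 0.0304% of all genes fell and 0.0607% rose (4 and 8 genes, or 3 and 14 under median-ratio scaling). All 7 changes were below 0, as were 69.3% of all genes, and the median of the 7 was -0.55 against -0.11 over all genes. Under quantile normalization and median-ratio scaling the background became -0.01. The median of the 7, the value of Dab2, moved as well, to -0.45 and -0.44 in turn. PLX5622 libraries lay wholly below the young ones for Mrc1, Stab1, Cd209a, Dab2 and F13a1, as for 12.7% of all genes. Mrc1 had a ratio of mean TPM of 0.489. It passed with a filter at a mean of 5 TPM (limma adjusted p = 0.0474) and with weights by group (adjusted p = 0.003). With these weights 241 of all genes passed in place of 12.

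**Figure D2:**
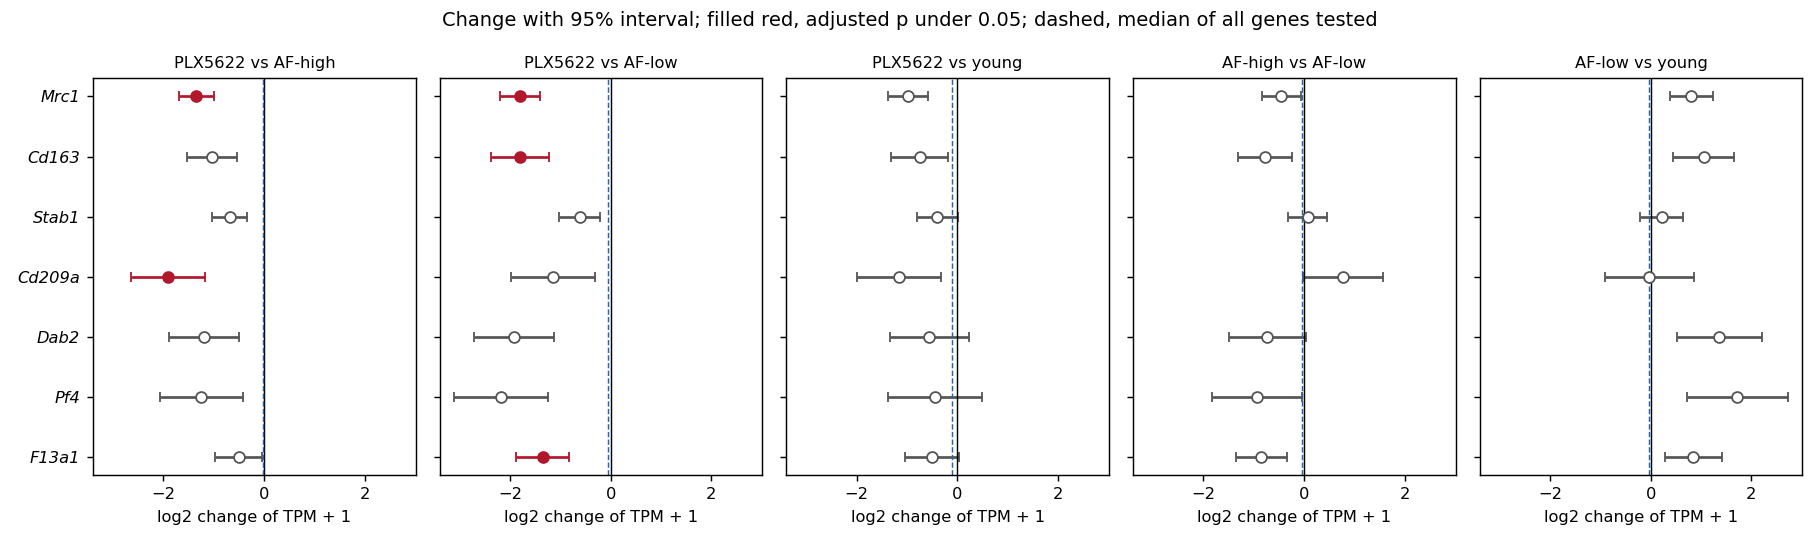
Log2 change of TPM + 1 (x axis) with its 95% interval for the 7 markers (y axis) in 5 comparisons, the first-named group minus the second; filled red points have a limma adjusted p under 0.05 and the dashed line is the median of all genes tested. Calls appear in the PLX5622 panels against AF-high (Mrc1 at -1.34, Cd209a at -1.91) and AF-low (Mrc1, Cd163 and F13a1), and in no other panel.

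AF-high and AF-low microglia, sorted from mice of the same age, were compared to ask what goes with autofluorescence. Here 0 of 7 markers passed (limma), with 4 at an unadjusted p under 0.05, and 0% of all genes passed, against 8.21% at an unadjusted p under 0.05. Mrc1, Cd163 and F13a1 were lower in every AF-high than in every AF-low library, as were 1.71% of all genes. F13a1 had 6.84 ± 1.14 TPM in AF-high (SD, n = 5) and 13.6 ± 4.72 in AF-low (n = 3), a log2 difference of -0.85 ± 0.24 (limma adjusted p = 0.471). The difference was -0.77 ± 0.25 for Cd163 (adjusted p = 0.479), -0.93 ± 0.42 for Pf4 (adjusted p = 0.588) and -0.73 ± 0.36 for Dab2 (adjusted p = 0.627), none past the threshold. The Dab2 estimate moved most with AF-low 1, the library with the highest endothelial sum. It was -0.32 without AF-low 1, -1.10 without AF-low 2 and -0.06 without AF-low 1 and AF-high 2 and 3. That of Pf4 was -0.58 without AF-high 2. The estimates for the lectin Cd209a (0.77 ± 0.37, adjusted p = 0.627) and Stab1 (0.07 ± 0.18, adjusted p = 0.944) were on the other side of 0. That of Stab1 was -0.08 without AF-high 2. Of the 7 changes 5 were below 0, as were 56.1% of all genes, with a median of -0.73 against -0.04 over all genes, and -0.52 without AF-low 1.

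Untreated old cells were compared with young ones to ask what goes with age; which gate the young cells passed is unknown. In AF-high cells 0 of 7 markers passed (limma; 0 also at an unadjusted p under 0.05), where 0% of all genes passed and 11% had an unadjusted p under 0.05. Of the 7 estimates 6 were above 0, as were 39% of all genes, and Mrc1 alone was higher in every AF-high than in every young library, as were 2.63% of all genes. In AF-low cells 0 passed, with 5 at an unadjusted p under 0.05 (11.8% of all genes) and 6 above 0 (45.7% of all genes), where 0.0455% of all genes rose and 0% fell. Mrc1, Cd163, Pf4 and Dab2 were higher in every AF-low than in every young library, as were 8.25% of all genes. The largest estimate was that of Pf4, at 66.4 ± 16.5 TPM in AF-low and 19.8 ± 7.39 TPM in young libraries (SD, n = 3 each; 1.72 ± 0.47, adjusted p = 0.188). Dab2 was at 1.36 ± 0.40 (adjusted p = 0.211), Cd163 at 1.06 ± 0.28 (adjusted p = 0.183), F13a1 at 0.85 ± 0.27 (adjusted p = 0.228) and Mrc1 at 0.81 ± 0.20 (adjusted p = 0.148) on the log2 scale. Cd209a differed by -0.02 ± 0.42 between AF-low and young cells, and F13a1 by -0.01 ± 0.24 between AF-high and young cells; both estimates turned positive under quantile normalization and median-ratio scaling. With both gates together, 0 of 7 passed against young cells, with 4 at an unadjusted p under 0.05 (12.3% of all genes), where 0.106% of all genes rose and 0.0759% fell (14 and 10 genes, or 25 and 8 under median-ratio scaling). All 7 estimates were above 0, as were 41.6% of all genes, with a median of 0.59 against -0.06 over all genes. Mrc1 alone was higher in all 8 old than in all 3 young libraries, as were 1.47% of all genes.

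The remaining genes of this cell type behaved less evenly and shared the pattern of the 7 in part. Of 27 further border macrophage genes, listed from general knowledge, 22 were in the table and tested. In each of the 8 comparisons 0 of them passed (limma), where at most 1.08% of all genes fell and 0.281% rose. Of the 22, 6, 8, 2 and 7 had an unadjusted p under 0.05 in PLX5622 against AF-high, AF-low, young and both old gates, where 15.3%, 14.3%, 5.23% and 16.7% of all genes did. Their median change was -0.17 in PLX5622 against AF-high cells, -0.40 against AF-low and -0.06 against young cells. Over all genes the medians were -0.02, -0.05 and -0.11. In these comparisons 15, 17 and 13 of the 22 were below 0, as were 52.5%, 55.6% and 69.3% of all genes. Of the 22, 0, 6 and 2 lay wholly below in PLX5622, as did 4.18%, 10.9% and 12.7% of all genes. Wholly above lay 1, 2 and 2 (312, 699 and 432 of all genes). Cbr2, a carbonyl reductase, had the lowest adjusted p against both old gates together (-1.51 ± 0.38, limma adjusted p = 0.0659, with overlap), and was at 0.563 to 9.76 TPM in PLX5622 and 12.2 to 23.3 TPM in AF-low libraries (-2.03 ± 0.47, adjusted p = 0.0958). Nrp1, a semaphorin and VEGF co-receptor named here after its values were seen, had the lowest adjusted p of the 22 against AF-high cells and an estimate above 0 (0.56 ± 0.16, adjusted p = 0.113). It was at 32.8 to 42.7 TPM in PLX5622 and 18.3 to 28.5 TPM in AF-high libraries, without overlap. Ms4a7, a membrane-spanning protein, averaged 4.64 ± 0.93 TPM in PLX5622 (SD, n = 4) and 9.71 ± 4.95 TPM in AF-high libraries (n = 5; adjusted p = 0.274). The hyaluronan receptor Lyve1 averaged 2.25 ± 0.64 TPM in PLX5622 and 5.37 ± 4.02 TPM in AF-high libraries, with 11.6 TPM in AF-high 4 (adjusted p = 0.351). Siglec1, a sialic acid-binding lectin, was at 3.71 to 4.66 TPM in PLX5622 and 2.48 to 5.61 TPM in AF-high libraries (0.16 ± 0.19, adjusted p = 0.753). The folate receptor gene Folr2 was at 0.933 to 3.63 TPM in PLX5622, 0.416 to 5.24 TPM in AF-high and 1.92 to 6.06 TPM in AF-low libraries (0.50 ± 0.42 against AF-high, adjusted p = 0.615). In AF-high against AF-low cells 19 of the 22 were below 0 (56.1% of all genes). Of the 22, 2 lay wholly below (1.71%) and 0 wholly above (138 of all genes). Against young cells 15 of the 22 were above 0 in AF-high (39% of all genes) and 16 in AF-low (45.7%). Wholly above lay 0 in AF-high (2.63%) and 9 in AF-low (8.25%), and wholly below 3 and 1 (678 and 1461 of all genes). Because the 7 markers were chosen with results known, the distance between these 22 genes and the 7 is a description.

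**Figure D3:**
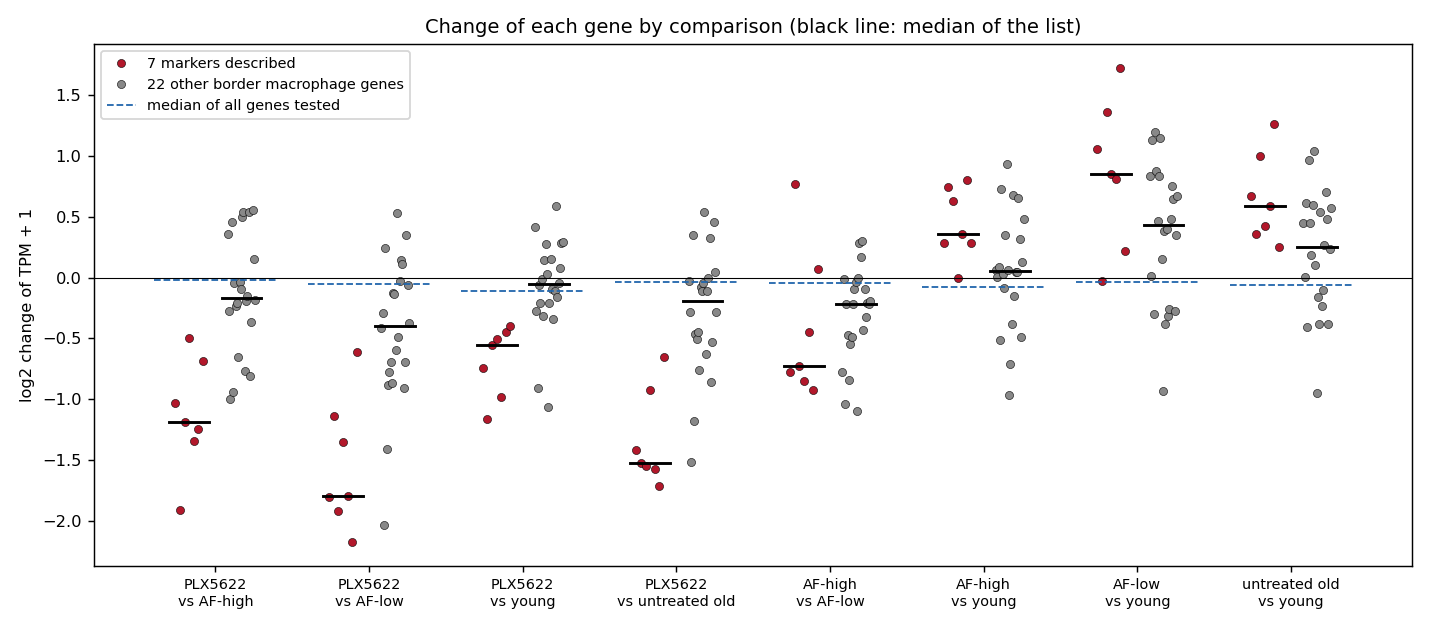
Log2 change of TPM + 1 (y axis) of each of the 7 markers (red) and of the 22 other border macrophage genes (grey) in 8 comparisons (x axis), the first-named group minus the second, with list medians (black lines) and the median of all genes tested (dashed). In PLX5622 against AF-low cells the medians are -1.79 for the 7 markers, -0.40 for the 22 genes and -0.05 for all genes.

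Summed over the 7 markers, the level was 185 ± 20.9 TPM in PLX5622 (SD, n = 4), 371 ± 62.1 TPM in AF-high (n = 5), 475 ± 79.2 TPM in AF-low (n = 3) and 263 ± 32 TPM in young libraries (n = 3), and most of it was Stab1 and Dab2. The highest PLX5622 library had 215 TPM and the lowest young one 228 TPM, and AF-high 1, at 422 TPM, lay above the lowest AF-low library at 418 TPM. The 22 other genes summed to 525.9 ± 36.5 TPM in PLX5622, 471 ± 36.9 TPM in AF-high, 494 ± 60.1 TPM in AF-low and 513 ± 46.4 TPM in young libraries, with overlap between all groups. Hpgd, a prostaglandin-degrading enzyme singled out after its values were seen, made up much of that sum, at 270 ± 24.3 TPM in PLX5622, 189 ± 41.4 TPM in AF-high, 190 ± 46 TPM in AF-low and 245 ± 41.9 TPM in young libraries. Without it the other 21 genes summed to 256 ± 13.1 TPM in PLX5622, 282 ± 8.69 TPM in AF-high, 304 ± 24.6 TPM in AF-low and 268 ± 13.9 TPM in young libraries. PLX5622 then had the lowest mean, and its libraries (245 to 274 TPM) lay below all AF-low ones (285 to 332 TPM) and overlapped the AF-high and young ones. Homeostatic microglial genes (15 of 15 in the table) summed to 11934 to 12849 TPM in PLX5622, 12088 to 16320 TPM in AF-high, 9733 to 12883 TPM in AF-low and 13741 to 15565 TPM in young libraries. PLX5622 and AF-low libraries overlapped in that sum, while their 7-marker sums did not.

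**Figure D4:**
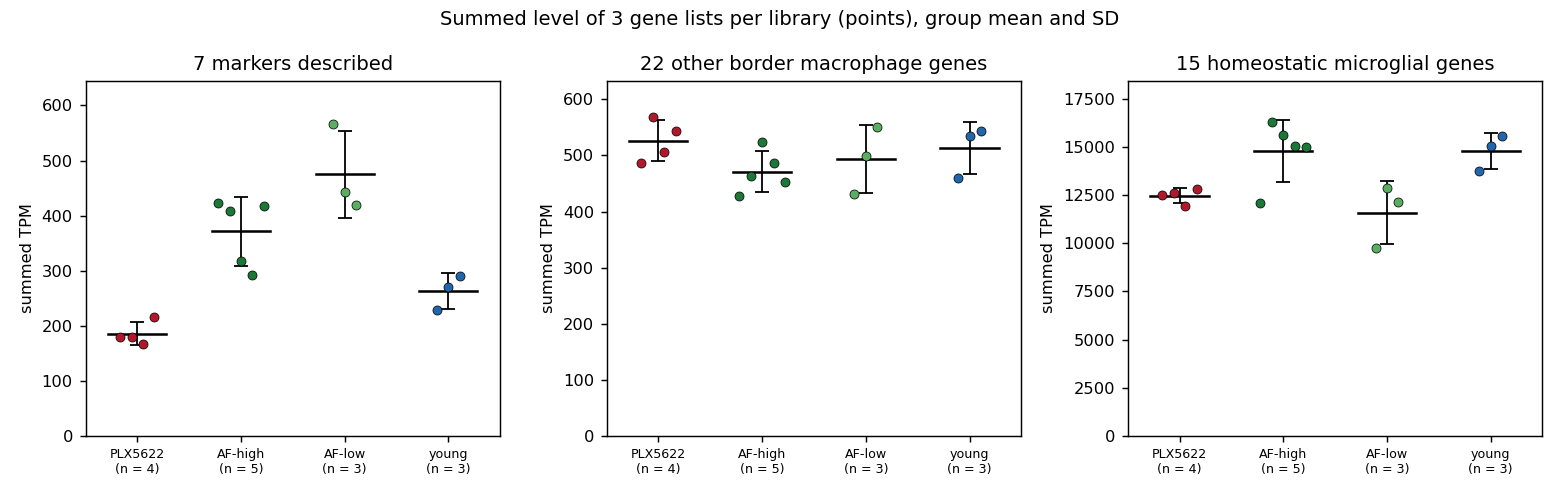
Summed TPM per library (points; linear axes starting at 0) with group mean and SD for the 7 markers, the 22 other border macrophage genes and 15 homeostatic microglial genes, in PLX5622, AF-high, AF-low and young libraries. The 7 markers sum to 167 to 215 TPM in PLX5622 and to 418 to 566 TPM in AF-low libraries, while the 22 other genes, of which Hpgd makes up a large share, overlap between the groups; without Hpgd the other 21 sum to 245 to 274 TPM in PLX5622 and 285 to 332 TPM in AF-low libraries.

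The markers did not all follow 1 pattern over the libraries. Likeness of 2 genes was measured as the mean absolute difference between their centred and SD-scaled log2(TPM + 1) values over the 15 libraries, where a smaller value is more alike. Across all genes tested, Cd163 was nearest to Mrc1 and Mrc1 nearest to Cd163, at 0.32 SD units, where the median gene was 1.09 from Mrc1 and 1.07 from Cd163. F13a1 was at 0.48 and Pf4 at 0.51 from Cd163, which was sixth nearest to F13a1 and twenty-first nearest to Pf4 among all genes. Cd209a stood farthest from the other 6, at 0.62 from Mrc1 and 0.88 from F13a1. After Cd163, Arrb2 (beta-arrestin 2) and Actn4 (an actin crosslinker) were nearest to Mrc1, at 0.32 and 0.34. Iffo2 and Actn4 followed Mrc1 in likeness to Cd163, at 0.37 and 0.41. Stab1 was nearest to Mlxipl, Fscn1 and Arl8b (0.24 to 0.30), and Dab2 to Tmbim1, Fbxo11 and Prag1 (0.21 to 0.24). Pf4 was nearest to Dnttip2, U2af1l4 and the scavenger receptor gene Msr1 (0.34 to 0.41), F13a1 to Sumo3, Arpp19 and Mvp (0.40 to 0.42), and Cd209a to Tubb2b, Map1lc3a and Sema6b (0.41 to 0.43). Only for Mrc1 and Cd163 was another of the 7 among the 3 nearest genes.

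**Figure D5:**
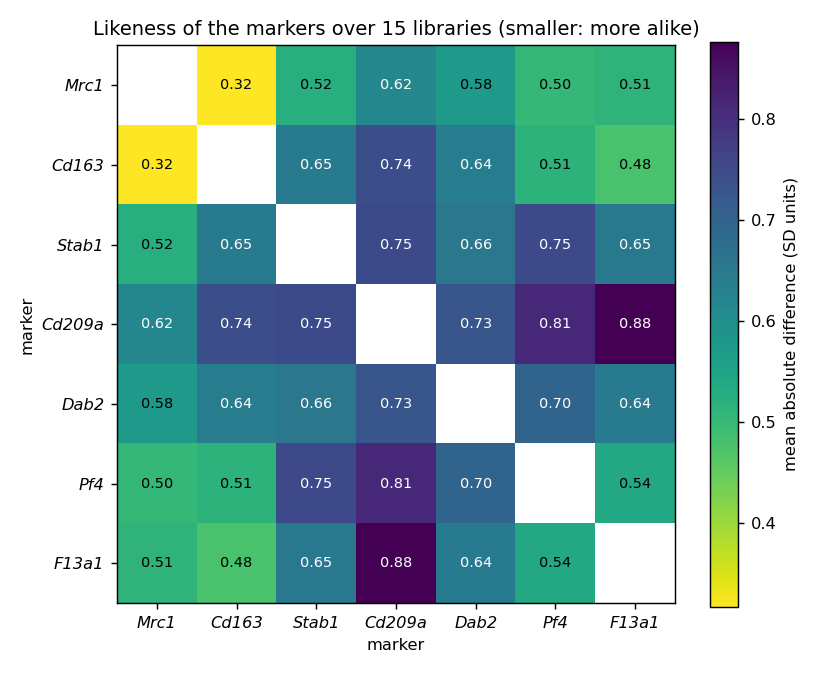
Mean absolute difference, in SD units over the 15 libraries, between the scaled levels of each pair of the 7 markers (rows and columns); smaller values and yellow cells are more alike. Mrc1 and Cd163 form the most alike pair at 0.32, and Cd209a and F13a1 the least alike at 0.88.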

How the data were processed

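RNA of sorted mouse microglia was sequenced in 15 libraries. Per the labels' protocols, RNA was amplified with the Ovation RNA-seq system before low-input library preparation. The authors deposited TPM values, 1 column per library, matched to the labels by their description. The submitters' processing notes name FastQC 0.11.8, Salmon 1.0.0 and DESeq2 and the build GRCm38 (mm10); the sources used here state no rule for the authors' gene filter. Library totals were 956489 to 963145 TPM; TPM keeps no read depth, so depth is unknown and no counting interval was computed. There were 0 identical pairs of libraries, and 19 symbols had turned into dates.

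Genes with at least 1 TPM in at least 3 libraries were fitted as log2(TPM + 1), pseudocount 1, in 1 linear model of all 15 libraries with limma 3.58.1 in R 4.3.3 (eBayes with trend; 11 residual degrees of freedom, prior degrees of freedom 4.151 in the median gene). All p-values are two-sided, with Benjamini-Hochberg adjustment over 13175 genes within each of 8 comparisons and a threshold of 0.05. The procedure was tested on simulated data with equal spread in all groups and changes placed only in more abundant genes. It was not tested with unequal spread between groups or with changes in low genes such as Cd163 and Cd209a. Fold changes on the log2(TPM + 1) scale understate those of low genes. All 7 markers are named throughout; of the other border macrophage genes, called ones and Lyve1, Cbr2, Ms4a7, Siglec1 and Folr2; and for likeness the 3 nearest genes of each marker, numbered gene models passed over. The markers, lists, tests and alternatives were chosen with earlier results of these data known. Alternatives were pseudocounts of 0.1 and 5, no filter, a filter at a mean of 5 TPM, quantile normalization, median-ratio scaling, a fit of only the groups compared, weights by group, a replicate block and each library left out. Loci are from GENCODE M21 and promoters from RefSeq (GRCm38.p6), in which all 7 markers were matched. Figures used Python 3.11.15 and matplotlib 3.10.9.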

Additional observations from a re-analysis of the deposited data

Results flagged for a closer look

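Stab1 was at 270 TPM in AF-high 2, against 147 to 172 TPM in the other 4 AF-high libraries; the gap to the next library was 0.803 of the group's range, above Dixon's critical value of 0.71 for 5 libraries. In the 14 sets of AF-high or PLX5622 libraries checked over the 7 markers 1 was flagged, where chance flags about 1 in 20. The same library had the lowest Pf4 of its group, at 12.3 TPM. It also had the highest T and NK cell sum (2 of 10 genes in the table), at 40.3 TPM against 4.69 to 11.2 TPM in every other library. The defining genes of that list, Cd3e and Cd3g, were not in the table. The part of that sum in these values was not tested.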

How the results depend on the processing

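In the 4 comparisons without PLX5622 cells, 0 markers were called under every alternative run. For PLX5622 against AF-high, 2 markers were called, and 1 with a filter at a mean of 5 TPM (Cd163 and Cd209a then not being tested). The count was 1 with only the groups compared and 3 with weights by group (Stab1 gained). It was 4 with 3 old libraries (AF-high 2 and 3, AF-low 1) left aside, and 1 with young 1 and 2 left aside. These last 2 choices were made after seeing the data. For PLX5622 against AF-low, 3 were called, 3 with either other pseudocount, 2 each with no filter, the filter at 5 TPM, quantile normalization, median-ratio scaling and weights by group, 0 with only the groups compared, 4 with the 3 old libraries left aside and 1 with young 1 and 2 left aside. For PLX5622 against young, 0 were called, and 1 with the filter at 5 TPM and 1 with weights by group. For PLX5622 against both old gates, 6 were called, 6 with no filter or either other pseudocount, 4 under quantile normalization, 5 each under median-ratio scaling and with the filter at 5 TPM (Stab1 gained, Cd163 and Cd209a not tested), 7 each with weights by group and with the 3 old libraries left aside, 2 with only the groups compared and 2 with young 1 and 2 left aside. Leaving out 1 library gave 1 to 3, 1 to 5, 0 to 0 and 1 to 7 markers in these 4 comparisons. The count over all genes moved more: 83, 19, 12 and 179 genes in these 4 comparisons, with 0 to 295, 0 to 398, 0 to 241 and 3 to 573 over the alternatives, and 0, 0, 6 and 24 genes in AF-high against AF-low and in AF-high, AF-low and both gates against young, with up to 1, 56, 182 and 224. In the comparisons with PLX5622 cells the highest counts came with the 3 old libraries left aside (295), without AF-low 2 (398) and with weights by group (241 and 573). The cause of these moves was not tested.

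Same-numbered libraries of different groups correlated in their deviations by -0.081 to 0.141 over genes, and only AF-high 1 with young 1 exceeded 0.1. Differently numbered libraries were not compared, so these values cannot decide whether same-numbered libraries share an animal. With the replicate block, 0 markers were called against AF-high, 1 (Mrc1) against AF-low, 0 against young and 1 (Mrc1) against both old gates, in PLX5622 cells.

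The direction of 4 estimates turned, none of them past the threshold in any fit. F13a1 in AF-high against young, -0.01, was 0.15 under quantile normalization, 0.078 under median-ratio scaling, 0.12 with the 3 old libraries left aside and -0.0893 to 0.14 without 1 library. Cd209a in AF-low against young, -0.02, was 0.13 and 0.015 under these scalings, 0.58 with young 1 and 2 left aside and -0.33 to 0.28 without 1 library. Stab1 in AF-high against AF-low, 0.07, was -0.0504 with the 3 old libraries left aside and -0.077 to 0.18 without 1 library. Cd163 in AF-high against young, 0.28, was -0.025 with young 1 and 2 left aside. TPM carries no depth, so the counting error of low values such as those of Cd163 and Cd209a is unknown.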

Other observations

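The make-up of the summed marker level differed between libraries. Stab1 made up 57.0% to 64.2% of the 7-marker sum in PLX5622 libraries. Its share was 39.7% to 66.3% in AF-high libraries, 31.6% to 45.0% in AF-low libraries and 55.2% to 57.5% in young ones. Dab2 made up 19.8% to 25.5% in PLX5622 libraries and 20.0% to 40.8% in AF-high libraries. Its share was 22.05% to 50.5% in AF-low libraries, highest in AF-low 1, and 21.5% to 26.4% in young ones. The share of Mrc1 was 3.79% to 6.09% in PLX5622 and 5.48% to 7.34% in AF-high libraries.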
